A study of Mus musculus with 16 samples.

Results

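Genes that run cell division were followed in the liver and kidney of aged mice kept under a chronic jet lag schedule. The rows of the FPKM tables of both organs were taken whose symbol is one of 48 genes, of 32989 genes in all. All 48 were found, each with a single row. Of these, 28 act in the entry into mitosis and in chromosome segregation and are called mitosis genes here, and 18 act in DNA replication or its onset and are called replication genes. The other 2 are Ccnd1, a cyclin of the start of the cycle, and Stmn1, which destabilizes microtubules. FPKM is the number of fragments per kilobase of exon, scaled to the size of the library.

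The mice were male C57BL/6J without a transgene, aged 97 weeks at sampling, and had been housed for 85 weeks in one of the light conditions. LD-conditioned mice had a fixed light-dark cycle, and for ADV-conditioned mice the cycle was advanced by 8 h once every 4 days. Poly(A)-enriched stranded RNA of liver and kidney was sequenced for 4 mice of the LD group (L63, L65, L86, L104) and 4 of the ADV group (A75, A91, A94, A115). The 16 libraries were prepared from whole organs, so that fewer cells of a type and less RNA per cell cannot be told apart.

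Most hepatocytes and kidney tubule cells of an adult rest outside the cell cycle, and transcripts of mitosis genes are scarce in such tissue. As a cell enters the cycle, E2F factors switch on replication genes such as the Mcm helicase subunits, Pcna and the ribonucleotide reductase. Mitosis genes follow later, under the DREAM and MuvB complexes with B-MYB and FOXM1. Their promoters often carry a CHR element together with CCAAT boxes, which bind NF-Y.

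Promoter sequences were taken from RefSeq (GRCm38.p6, the assembly that mm10 names) for 37 of the 48 genes, each running from 250 bases before to 50 bases after the start. In 32 of the 37 the RefSeq start was the gene start of the deposited tables, and the others lay up to 466 bases from it. The motifs searched on both strands were TTTGAA or TTCGAA for the CHR element, CCAAT, and GCGGGAA or TTGGCGC for an E2F site. The 6 promoters printed belong to Mki67, to the gene with the smallest p for the light condition in each list and organ (Cdca3 and Rrm1 in the liver, Cdca8 and Mcm5 in the kidney), and to Tk1, the gene whose level favoured the liver most. Capitals mark the matches.
Mki67, chr7:135716330-135716629, minus strand: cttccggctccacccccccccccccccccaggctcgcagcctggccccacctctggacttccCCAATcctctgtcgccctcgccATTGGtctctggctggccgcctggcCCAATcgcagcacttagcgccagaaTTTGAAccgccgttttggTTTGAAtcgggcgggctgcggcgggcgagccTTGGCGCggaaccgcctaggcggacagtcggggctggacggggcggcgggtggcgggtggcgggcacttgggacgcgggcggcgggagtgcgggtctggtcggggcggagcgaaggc
Cdca3, chr6:124829926-124830225, plus strand: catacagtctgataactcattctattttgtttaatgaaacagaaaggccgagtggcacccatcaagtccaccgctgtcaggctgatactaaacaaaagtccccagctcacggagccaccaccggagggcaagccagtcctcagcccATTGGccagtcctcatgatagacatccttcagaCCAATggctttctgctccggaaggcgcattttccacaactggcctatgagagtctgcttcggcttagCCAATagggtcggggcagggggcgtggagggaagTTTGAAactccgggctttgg
Cdca8, chr4:124936868-124937167, minus strand: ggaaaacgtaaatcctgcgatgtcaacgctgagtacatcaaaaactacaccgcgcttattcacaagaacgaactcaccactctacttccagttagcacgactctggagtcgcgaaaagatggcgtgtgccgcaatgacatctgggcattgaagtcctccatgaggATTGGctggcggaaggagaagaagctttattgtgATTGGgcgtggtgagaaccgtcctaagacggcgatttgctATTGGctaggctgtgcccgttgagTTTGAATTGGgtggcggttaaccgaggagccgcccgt
Rrm1, chr7:102441445-102441744, plus strand: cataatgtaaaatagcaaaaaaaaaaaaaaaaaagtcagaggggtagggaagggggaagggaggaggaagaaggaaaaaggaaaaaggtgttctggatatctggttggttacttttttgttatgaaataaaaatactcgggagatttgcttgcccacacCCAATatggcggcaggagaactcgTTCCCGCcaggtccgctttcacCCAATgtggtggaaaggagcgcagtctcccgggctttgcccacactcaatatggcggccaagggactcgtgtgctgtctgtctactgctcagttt
Mcm5, chr8:75109259-75109558, plus strand: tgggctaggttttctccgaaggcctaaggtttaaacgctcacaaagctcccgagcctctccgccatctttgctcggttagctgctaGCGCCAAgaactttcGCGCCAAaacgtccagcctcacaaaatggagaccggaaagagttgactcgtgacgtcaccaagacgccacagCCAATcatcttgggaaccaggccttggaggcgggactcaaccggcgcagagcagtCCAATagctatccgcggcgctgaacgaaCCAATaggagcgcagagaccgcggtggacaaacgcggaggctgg
Tk1, chr11:117825965-117826264, minus strand: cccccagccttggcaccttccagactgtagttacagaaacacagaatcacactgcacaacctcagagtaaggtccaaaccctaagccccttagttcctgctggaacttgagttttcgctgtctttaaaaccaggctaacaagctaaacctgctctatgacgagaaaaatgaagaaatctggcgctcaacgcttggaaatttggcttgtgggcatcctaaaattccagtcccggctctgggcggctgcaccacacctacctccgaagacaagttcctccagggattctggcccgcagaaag
The promoter of Cdca8, a subunit of the chromosomal passenger complex, held 4 CCAAT boxes and 1 CHR match, the last box overlapping it, and that of Mcm5, a helicase subunit, held 3 CCAAT boxes and 2 E2F matches. No match to these letters was found in the window of Tk1, the cytosolic thymidine kinase.

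A CHR match stood in 17 of 23 promoters of mitosis genes (73.9%) and in 3 of 14 of replication genes (21.4%), beside 14% of the 11281 promoters of genes tested in either organ. Within 50 bases of the start the counts were 16 of 23 (69.6%), 1 of 14 (7.14%) and 3.43% of all. An E2F match was found in 3 of 23 promoters of mitosis genes (13%), in 6 of 14 of replication genes (42.9%), among them Mcm3, Mcm5, Mcm6 and Mcm7, and in 11.8% of all. CCAAT boxes occurred in 18 of 23 (78.3%) and 9 of 14 (64.3%), beside 38.5% of all. A CHR match together with a CCAAT box was present in 16 of the 23 promoters of mitosis genes (69.6%), in 3 of the 14 of replication genes (21.4%) and in 5.71% of all. The median GC content of the windows was 58.7% for mitosis genes, 57.3% for replication genes and 60.7% for all. These shares describe letters in fixed windows and were not tested.

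The libraries held 22.7 to 26.3 M fragments in the liver and 17.1 to 19.7 M in the kidney. One fragment in 1 kb of exon amounted to 0.0380 to 0.0440 FPKM in the livers and 0.0508 to 0.0584 in the kidneys. Hepatocyte markers such as Alb summed to 58325 to 71968 FPKM in the livers, and kidney tubule and podocyte markers such as Slc34a1 and Umod to 1367 to 4070 FPKM in the kidneys, to 1.37 in liver A94, where 78 fragments of Umod were counted, and to 0.0253 to 0.0854 in the other livers. Liver A94 and kidney A115 stood apart over all genes. Their mean correlation across genes with the other libraries of the organ was 0.954 and 0.865, beside 0.981 to 0.985 for the other livers and 0.935 to 0.966 for the other kidneys. Mitochondrial genes took 33.8% of the fragments in kidney A115, 9.43% to 13.1% in the other ADV kidneys and 15.7% to 18% in the LD kidneys, so that A115 lay above and the other 3 below every LD kidney. In the livers the share was 5.84% in A94, 7.92% to 9.52% in the other ADV livers and 6.81% to 8.81% in the LD livers. A pair of sequencing providers is named without the libraries each one handled, and a batch of this kind was not examined.

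In the ADV-conditioned livers the mitosis genes were high in A94, moderately high in A115, slightly above the LD livers in A75 and slightly below them in A91. Averaged over the 28 mitosis genes on the log2(FPKM + 0.1) scale, A94 stood 2.57 above the mean of the LD livers and A115 0.86 above it, A75 0.16 above it, and A91 0.25 below it, while the LD livers lay between −0.14 and 0.08. The 18 replication genes stood less high in the same animal, with A94 at 1.14 and the other ADV livers between −0.05 and 0.10. In the kidneys the mitosis genes stood high in A75 (1.81), A94 (1.55) and A115 (2.19) and low in A91 (−0.56), beside −0.28 to 0.63 in the LD kidneys. The replication genes were high in kidneys A75 (0.93) and A94 (1.06), near the LD kidneys in A91 (−0.04), and at 0.26 in A115. For the mitosis genes A94 thus stood high in both organs, A91 stood below the lowest LD mouse in both, and A75 stood high in the kidney and just above the LD mice in the liver.

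**Figure D1:**
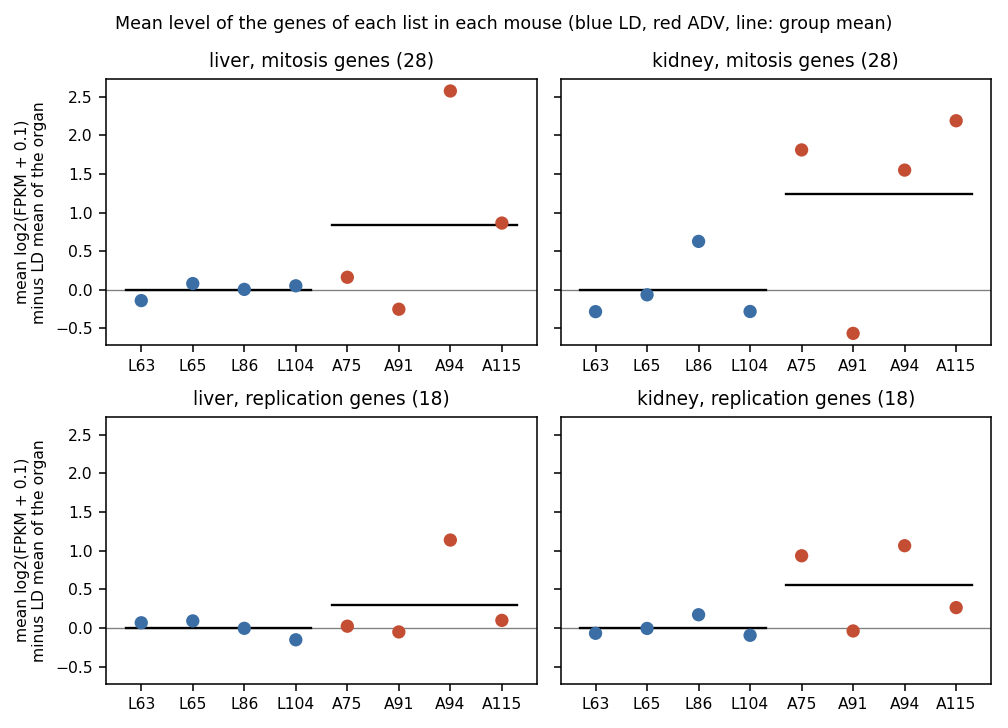
Mean log2(FPKM + 0.1) of the 28 mitosis genes (top) and 18 replication genes (bottom) in each mouse, minus the mean of the 4 LD mice of that organ (vertical axis, log2 units). Points are mice, blue for LD and red for ADV, and the black lines are group means. In the liver A94 stands alone at 2.57 for the mitosis genes, and in the kidney A75, A94 and A115 stand above all LD mice while A91 lies at −0.56.

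The transcripts of mitosis genes were scarce in the LD livers, with 1 to 46.5 fragments per gene and library and a median of 9. Mki67, the gene of the proliferation antigen Ki-67, had 0.128, 0.188, 0.151 and 0.15 FPKM in the livers of L63, L65, L86 and L104, and 0.223, 0.0903, 2.65 and 0.506 in those of A75, A91, A94 and A115. A91 was below every LD liver and the other 3 ADV livers above, so that the groups overlapped. The log2 fold change of 1.16 ± 0.69 (SE, n = 4 mice per group) had an adjusted p of 0.499 in limma. Without A94 the fold change was 0.40 (adjusted p = 0.614, limma).

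Liver A94 was the highest of the 8 livers for all 28 mitosis genes, and A115 was the second for 21 of them. A91 was the lowest for 13 of the 28. Against the median of the other 7 livers, A94 was higher by 2.47-fold for Aurka, a spindle pole kinase, up to 20.3-fold for Nusap1, a microtubule-binding protein of the spindle, with a median of 11.2-fold over the list. For the replication genes the same ratio ran from 0.737 for Tk1 to 6.47 for Cdc6, a loader of the helicase, with a median of 1.98, and A94 was the highest liver for 16 of the 18.

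Of the 28 mitosis genes, 22 passed the filter of a mean above 0.5 CPM (fragments scaled to library size, not to gene length) in the liver, and Bub1, Aurkb, Plk1, Nuf2, Foxm1 and Melk did not. The filter uses the mean over all 8 livers, and when A94 was left out only 10 of the 28 passed it, so the count that passed depends on this animal. Over the 12835 genes tested in the liver, 1 had an adjusted p under 0.05 (0.00779%), and it was none of the 48. Limma-voom on fragments recovered from the FPKM values gave none of the 48 in either organ. At an unadjusted p under 0.05, 4 of the 41 genes tested were higher and none lower (Rrm1, Gins1, Stmn1 and Cdca3), beside 8.65% of all genes higher and 3.13% lower. With no filter, the median log2 fold change of all 28 mitosis genes was 0.78, and with the filter that of all genes was 0.10. Of the 22 mitosis genes that passed, 12 did so only with A94 in the mean, so their values are given as a description. The median of the 17 replication genes tested was 0.29, and 13 of them had positive values.

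The mitosis genes described in each liver include Cdca3, Bub1b and Cdk1, which passed the filter with or without A94, and Nusap1, which passed it only with A94. Cdca3, which directs a mitotic inhibitor to degradation, measured 0.276, 0.438, 0.282 and 0.413 FPKM in the LD livers and 0.432, 0.423, 2.94 and 1.06 in the ADV livers. Its log2 fold change was 1.16 ± 0.51 (adjusted p = 0.424, limma), and without A94 it was 0.62 with an adjusted p of 0.373. Only A94 and A115 exceeded the LD livers.

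Bub1b, the spindle checkpoint protein BubR1, had 0.0897, 0.106, 0.136 and 0.084 FPKM in the LD livers and 0.111, 0.136, 1.1 and 0.42 in the ADV livers. Of these, A75 fell within the LD range and A91 lay just above it (0.1364, beside 0.1356 in L86). Nusap1 had 0.0416, 0.0825, 0.0709 and 0.159 FPKM in the LD livers and 0.203, 0.0733, 1.68 and 0.314 in the ADV livers. The value of A91 lay inside the LD range and those of the other 3 above it. The mitosis genes with the highest mean over all 8 livers, to which A94 added most, were Birc5, which encodes survivin of the passenger complex, and Ube2c, the ubiquitin-conjugating enzyme of the anaphase-promoting complex.

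Birc5 stood at 0.338, 0.377, 0.589 and 0.548 FPKM in the LD livers and at 0.375, 0.313, 4.47 and 0.468 in the ADV livers. Ube2c stood at 0.331, 0.351, 0.391 and 0.309 FPKM in the LD livers and 0.323, 0.0467, 3.95 and 0.722 in the ADV livers. For Birc5 A94 alone exceeded the LD livers, and for Ube2c A94 and A115 did while A91 was far below the lowest LD liver. Cdk1, the kinase that drives entry into mitosis, was at 0.33, 0.462, 0.347 and 0.422 FPKM in the LD livers and at 0.637, 0.303, 2.72 and 1.04 in the ADV livers, with A91 lowest of all. In liver A91 no fragment of Ccnb1, the B-type cyclin partner of Cdk1, or of Melk was counted, and a count of 0 allows up to 0.0562 FPKM for Ccnb1 and 0.0448 for Melk (3 fragments, counting error only). Plk1, a mitotic kinase below the filter, was higher in every ADV liver than in every LD liver, at 1 to 4 fragments in the LD livers and 7, 4, 33 and 16 in A75, A91, A94 and A115, so that A91 had the same few fragments as the highest LD liver.

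Among replication genes, the ribonucleotide reductase subunit Rrm1 had the smallest p of the 41 genes tested in the liver. It measured 2.31, 2.08, 1.87 and 1.92 FPKM in the LD livers and 2.72, 2.48, 4.37 and 3.23 in the ADV livers. All 4 ADV livers were above all 4 LD livers, and the log2 fold change was 0.59 ± 0.18 (adjusted p = 0.326 in limma, exact two-sided permutation p = 0.0286, the smallest that 4 against 4 mice allow). Without A94 it was 0.44 (adjusted p = 0.226, limma).

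Mcm3, a subunit of the replicative helicase, also separated the groups, at 0.897, 1.1, 1.13 and 0.875 FPKM in the LD livers and 1.36, 1.2, 4.28 and 1.34 in the ADV livers. A75, A91 and A115 lay just above the LD livers and A94 far above them. Among all genes tested in the liver, 6.94% had every ADV mouse above every LD mouse and 1.89% every ADV mouse below, beside 2 (Mcm3 and Rrm1) and 0 of the 41 genes. Gins1, a subunit of the GINS complex of the helicase, was at 2.08, 1.41, 1.51 and 1.47 FPKM in the LD livers and 1.96, 2.8, 2.91 and 2.1 in the ADV livers (log2 fold change 0.56 ± 0.18, adjusted p = 0.351, limma). For Gins1 A91 was nearly as high as A94, and only A75 fell within the LD range, below L63.

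Mcm2 measured 0.548, 0.58, 0.527 and 0.535 FPKM in the LD livers and 0.917, 0.477, 2.77 and 1.02 in the ADV livers, with A91 the lowest of the 8. Pcna, the sliding clamp of the polymerases, and Tk1 were the most abundant replication genes in the liver. Pcna was at 23.3, 22.3, 23.4 and 20.4 FPKM in the LD livers and 25.3, 24, 30.3 and 19 in the ADV livers. Its log2 fold change of 0.12 ± 0.14 had an adjusted p of 0.694 (limma), and the fold change without A94 was 0.02.

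Tk1 went against the rest of the list in A94. It was at 16, 18.6, 17.8 and 14 FPKM in the LD livers and 15.3, 16.5, 11.8 and 15.3 in the ADV livers, so that A94 was the lowest of the 8 for Tk1 and the highest for 16 other replication genes. Ccne2, an E-type cyclin, was the other exception, at 1.47, 1.33, 1.06 and 1.25 FPKM in the LD livers and 0.833, 0.837, 1.38 and 0.633 in the ADV livers. A94 lay within the LD range for Ccne2 and A75, A91 and A115 below it. Its log2 fold change was −0.47 ± 0.23 (adjusted p = 0.443, limma) and without A94 −0.67 (adjusted p = 0.172, limma). Tyms and Ccne1 also had negative fold changes (−0.07 and −0.16).

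Ccnd1 measured 5.45, 5.01, 3.17 and 3.48 FPKM in the LD livers and 3.31, 2.58, 8.62 and 2.6 in the ADV livers. A94 was the highest of all 8, while A91 and A115 lay below every LD liver and A75 within their range. Stmn1 measured 2.54, 2.92, 3.66 and 2.77 FPKM in the LD livers and 5.12, 3.32, 11.1 and 4.02 in the ADV livers, with A91 alone inside the LD range (log2 fold change 0.82 ± 0.33, adjusted p = 0.391, limma). The fold change of Stmn1 without A94 was 0.46 (adjusted p = 0.278, limma).

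When A94 was left out of the liver comparison, 28 of the 48 genes passed the filter. At an unadjusted p under 0.05, 4 were higher (Stmn1, Rrm1, Mcm3 and Gins1) and 2 lower (Ccne2 and Ccnd1), beside 8.8% and 5.66% of all genes. The median of the 10 mitosis genes that passed was 0.41 and that of the 16 replication genes 0.12. When A91 was left out instead, 19 genes were higher at that threshold, beside 13.4% of all genes, and the smallest adjusted p among the 48 was 0.16. Leaving out L63, L65 or L104 lowered the count from 4 to 2, and that over all genes from 1110 to between 714 and 795.

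Markers of blood and connective tissue cells stood high in liver A94. The 6 leukocyte markers, among them Ptprc, summed to 220.0 FPKM in A94, to 20.7 to 26.8 in the LD livers and to 24.7 to 30.9 in the other ADV livers. The 6 markers of B and plasma cells, among them Jchain and Cd79a, summed to 691 FPKM in A94, to 5.0 to 10.2 in the LD livers and to 5.50 to 18.4 in the other ADV livers. T cell markers summed to 13.6 FPKM in A94 and to 0.992 to 1.72 in the other livers. Macrophage markers summed to 452 FPKM in A94, to 127 to 148 in the other ADV livers and to 94.7 to 120 in the LD livers. Mesenchymal markers, Dcn and Col1a1 among them, summed to 348 FPKM in A94, to 157 to 213 in the other ADV livers and to 113 to 129 in the LD livers. In A91 Dcn had 6386 fragments, not scaled to library size, beside 4769 to 5591.5 in the LD livers. Col1a1 had 45.5 there, beside 35 to 46.5, and Col3a1 had 286, beside 313 to 332.5. In A115, the liver second for mitosis genes, leukocyte markers summed to 24.7 FPKM and B and plasma cell markers to 5.50, within the LD ranges. Its macrophage markers (136) and mesenchymal markers (194) were above the LD ranges. The same held for A75 (148 and 213) and for A91 (127 and 157), the liver lowest over the mitosis genes. Erythroid markers summed to 429.7 FPKM in A94 and to 213 to 299.8 in the other livers. Alas2 of this list went the other way, with 1633 fragments in A94 and 1724.5 to 3546 in the other livers. Whether these cells carried the mitosis transcripts was not tested.

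**Figure D2:**
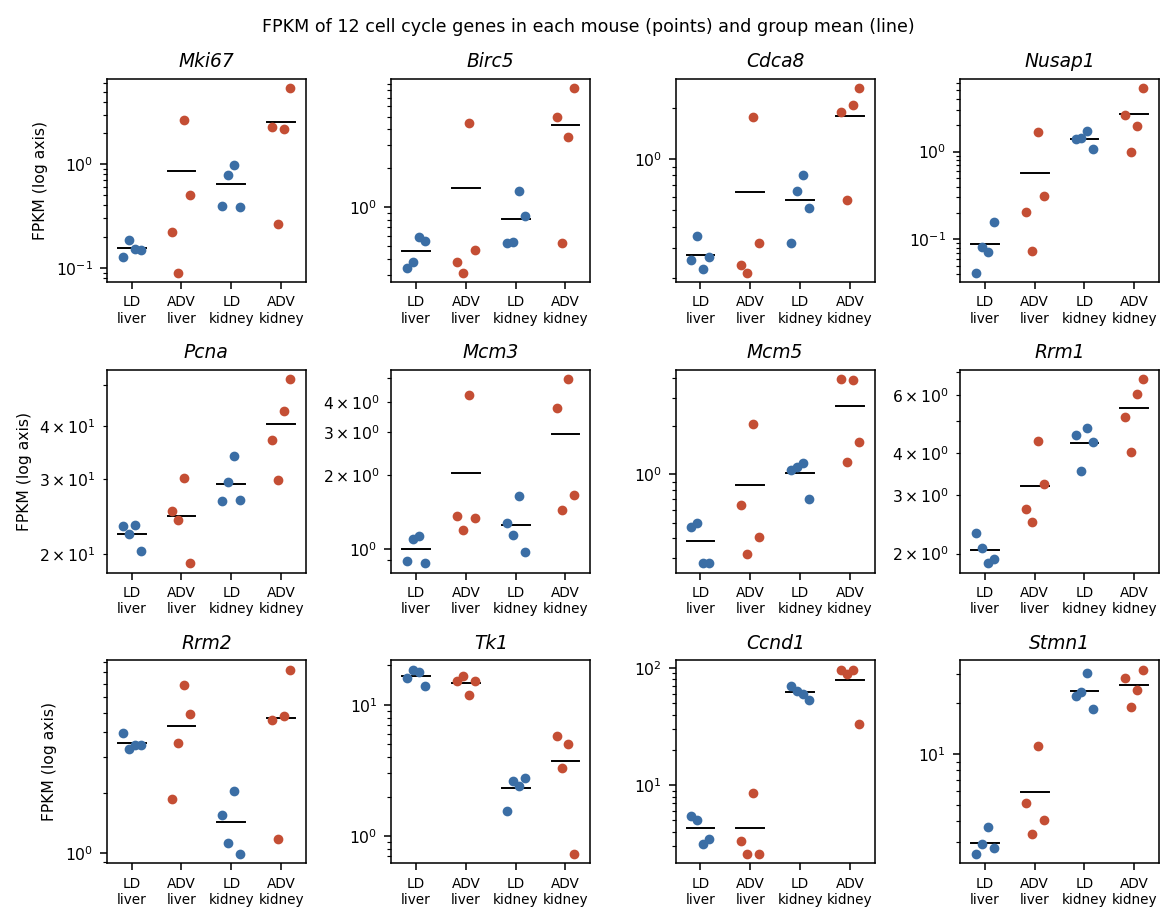
FPKM (vertical axes, log scale) of 12 of the 48 genes in each LD (blue) and ADV (red) liver and kidney, with the group mean as a line and mice in the order L63, L65, L86, L104 and A75, A91, A94, A115. A94 is the highest liver for all but Tk1, and the ADV kidneys spread over more than 10-fold for Mki67 and Birc5.

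In the ADV-conditioned kidneys most mitosis genes were high in 3 of the 4 mice. A75, A94 and A115 were each above all 4 LD kidneys for 23 of the 28 mitosis genes, and A75 was so for all 28. A91 exceeded all LD kidneys for none of them and was below all of them for 16. The fragments behind these values ranged from 2.5 to 170.5 per gene in the LD kidneys, with a median of 18, and from 3 to 1040 in the ADV kidneys, with a median of 66.75.

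Mki67 was at 0.40, 0.787, 0.987 and 0.383 FPKM in the kidneys of L63, L65, L86 and L104 and at 2.29, 0.264, 2.18 and 5.4 in those of A75, A91, A94 and A115. A91 was the lowest of the 8 and A115 the highest. The log2 fold change was 1.39 ± 0.77 with an exact two-sided permutation p of 0.2, and the fold change without A115 was 0.86.

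All 48 genes passed the filter in the kidney and all 48 had a positive fold change, with a median of 1.28 for the mitosis genes and 0.42 for the replication genes, beside −0.02 for all 14452 genes. The common sign depended on A115, without which Ccne2 was at −0.14. With A115 left out and scaling by the median ratio, Ccne2 (−0.31), Stmn1 (−0.18), Tyms (−0.11) and Cdc45 (−0.01) were negative. None of the genes tested in the kidney, and so none of the 48, had an adjusted p under 0.05 (0%), and every adjusted p of the 48 rounded to 1.0 (limma). At an unadjusted p under 0.05, 10 of the 48 were higher and none lower, beside 1.75% and 1.35% of all genes. They were the mitosis genes Ccna2, Ccnb2, Bub1b, Plk1, Birc5 and Cdca8 and the replication genes Mcm3, Mcm5, Pcna and Rrm2. Without A91, 35 of the 48 were higher at that threshold, beside 4.27% of all genes, with no adjusted p under 0.05. The count was 1 when L63, A75 or A94 was left out and 2 when L65 or L104 was, and over all genes it fell from 253 to between 108 and 151 in these fits.

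Cdca8, also called borealin, had the smallest p, at 0.319, 0.651, 0.811 and 0.511 FPKM in the LD kidneys and 1.89, 0.577, 2.09 and 2.62 in the ADV kidneys (log2 fold change 1.38 ± 0.47, adjusted p = 1.0, limma). A91 lay inside the LD range and the other 3 ADV kidneys at over 2-fold the highest LD kidney. Plk1 measured 0.117, 0.0663, 0.33 and 0.25 FPKM in the LD kidneys and 1.88, 0.231, 1.28 and 0.403 in the ADV kidneys. Kidney A115, the highest for most mitosis genes, was only slightly above the LD kidneys for Plk1.

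The cyclins Ccnb2 and Ccna2, partners of Cdk1 and Cdk2, were both among the 10. Ccnb2 was at 0.37, 0.343, 0.931 and 0.216 FPKM in the LD kidneys and 3.41, 0.295, 2.12 and 5.06 in the ADV kidneys, with the largest log2 fold change of the 48 genes (1.97 ± 0.78). Ccna2 was at 0.331, 0.511, 1.04 and 0.403 FPKM in the LD kidneys and 2.68, 0.423, 2.09 and 5.79 in the ADV kidneys. In both, A91 stood within the LD range and A115 highest.

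Birc5 and Ube2c also had the highest mean of the mitosis genes over all 8 kidneys, while in the LD kidneys alone Ube2c and Nusap1 did. Birc5 had 0.533, 0.543, 1.32 and 0.854 FPKM in the LD kidneys and 4.96, 0.525, 3.51 and 8.31 in the ADV kidneys. Ube2c had 1.0, 0.821, 3.46 and 0.655 FPKM in the LD kidneys and 4.89, 0.55, 4.8 and 2.34 in the ADV kidneys, with kidney L86 above the ADV kidneys A91 and A115. For Birc5 A91 lay just below the LD kidneys and the other 3 ADV kidneys far above them. L86 also had the highest mean of the LD kidneys over the 28 mitosis genes (0.63).

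Of the replication genes, Mcm5 alone separated the groups in the kidney. It was at 1.07, 1.12, 1.17 and 0.705 FPKM in the LD kidneys and 3.93, 1.2, 3.88 and 1.6 in the ADV kidneys, and the log2 fold change came to 1.15 ± 0.41 (adjusted p = 1.0, limma). Its exact two-sided permutation p was 0.0286, the smallest that 4 against 4 mice allow. A91 exceeded the highest LD kidney by little. Among all genes tested in the kidney, 0.962% had every ADV mouse above every LD mouse and 1.83% every ADV mouse below, beside 1 and 0 of the 48.

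Rrm2, the regulated subunit of the ribonucleotide reductase, was at 1.56, 1.13, 2.05 and 0.99 FPKM in the LD kidneys and 4.62, 1.17, 4.85 and 8.22 in the ADV kidneys (log2 fold change 1.42 ± 0.55, adjusted p = 1.0, limma). Mcm3 was at 1.28, 1.14, 1.64 and 0.97 FPKM in the LD kidneys and 3.78, 1.45, 4.96 and 1.67 in the ADV kidneys. For Rrm2 A91 lay among the LD kidneys, and for Mcm3 A91 lay within the LD range and A115 just above it.

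Pcna stood at 26.6, 29.6, 33.9 and 26.8 FPKM in the LD kidneys and 37.1, 29.9, 43.3 and 51.6 in the ADV kidneys, and the log2 fold change came to 0.45 ± 0.19 (adjusted p = 1.0, limma). A75, A94 and A115 were above every LD kidney for Pcna. Mcm6 stood at 9.25, 7.27, 8.59 and 8.02 FPKM in the LD kidneys and 13.8, 8.92, 12.4 and 9.01 in the ADV kidneys, where A75 and A94 alone were above the LD kidneys. Tyms, which makes thymidylate, had the smallest fold change of the 48 (log2 fold change 0.02 ± 0.18), with the ADV kidneys at 3.36, 2.36, 3.08 and 2.53 FPKM around the LD kidneys at 2.76, 3.12, 2.65 and 2.54.

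Stmn1 was at 22, 23.4, 30.4 and 18.5 FPKM in the LD kidneys and 28.3, 19, 23.9 and 31.7 in the ADV kidneys, with A115 just above the LD kidneys and A91 at the low end of them (log2 fold change 0.12 ± 0.22). Ccnd1 was the most abundant of the 48 genes in the kidney, at 70.1, 63.7, 60.2 and 53.6 FPKM in the LD kidneys and 95.8, 88.2, 97.1 and 33.5 in the ADV kidneys. A75, A91 and A94 were above every LD kidney and A115 below every one.

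**Figure D3:**
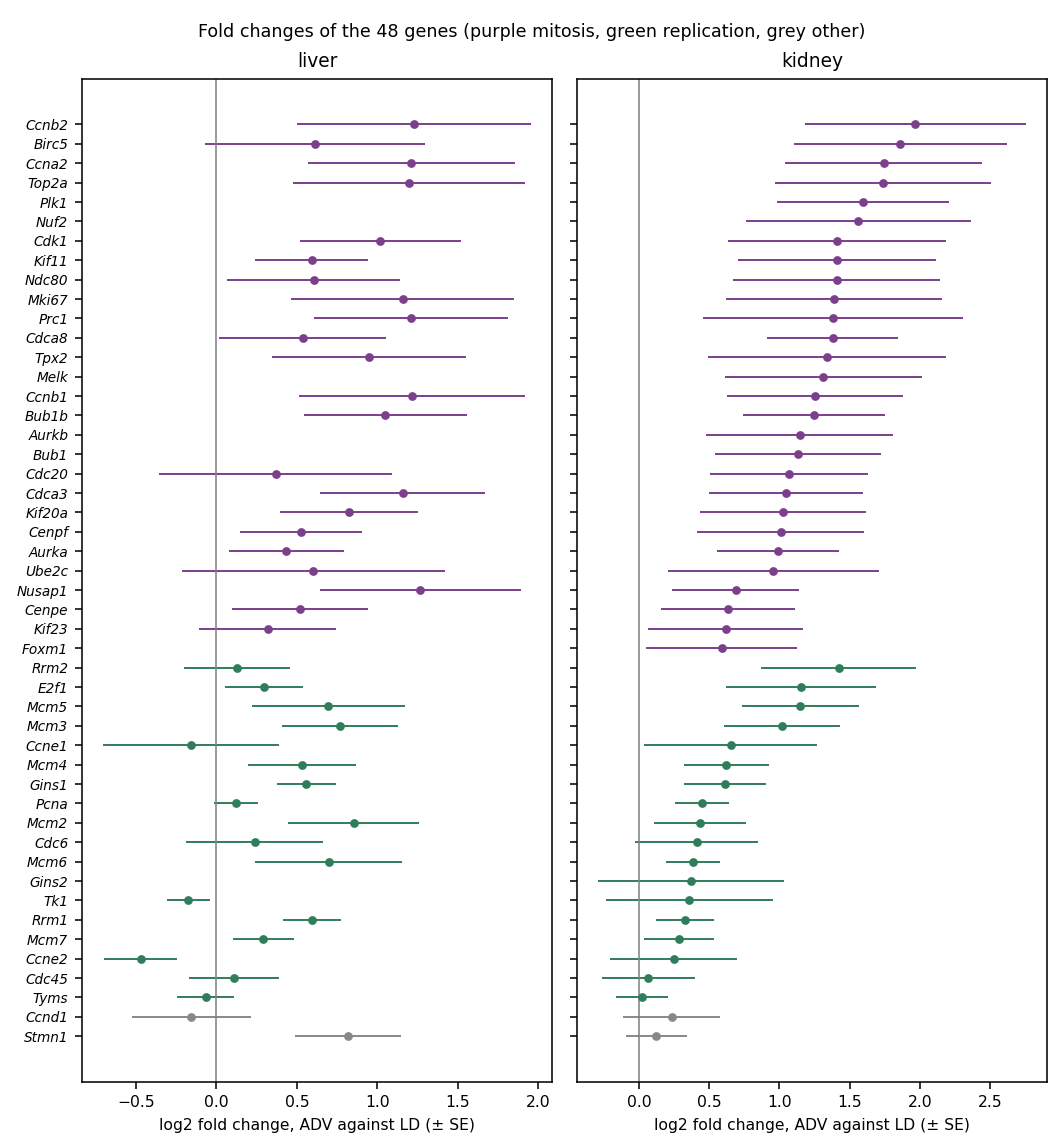
Log2 fold change of ADV against LD (horizontal axis, ± SE from limma, n = 4 mice per group) of the 48 genes in liver (left) and kidney (right), mitosis genes in purple, replication genes in green, Ccnd1 and Stmn1 in grey. Genes below the filter have no point. All 48 values in the kidney lie above 0, and the error bars of the mitosis genes are wide in both organs.

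Kidney A115 differed from kidneys A75 and A94 in which of the 48 genes were high. It was the highest kidney for 19 of the 28 mitosis genes, Mki67, Top2a and the kinetochore gene Nuf2 among them. Yet it was the lowest of all 8 for Tk1 (0.729 FPKM, beside 1.55, 2.62, 2.39 and 2.75 in the LD kidneys), for Ccnd1 and for the GINS subunit Gins2 (0.404 FPKM, beside 1.1, 1.02, 2.2 and 1.23). For Foxm1, a transcription factor of mitosis genes, it was at 0.228 FPKM, within the LD range.

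The GC content of the transcripts moved with this. Among the 24 genes with a GC content of 35% to 48.4%, A115 was 2.25 above the LD mean in the median on the log2 scale, and among the 24 with 49.1% to 57.9% it was 0.50 above it. For A75 these medians came to 1.56 and 1.75, for A94 to 1.14 and 1.46, and for A91 to −0.50 and −0.14. More of the mitosis genes fell in the group of lower GC content. A115 stood at 2.19 over the mitosis genes and 0.26 over the replication genes, and GC content and list were not separated. Across the 48 genes the correlation of a kidney's difference from the LD kidneys with GC content was −0.57 in A115 and 0.32, 0.41 and 0.22 in A75, A91 and A94. Across 13910 genes, 96.3% of those tested, it was −0.68 in A115, 0.37 in A94 and 0.57 to 0.58 in the other ADV kidneys, and between −0.32 and 0.24 in the LD kidneys, each compared with the other 3. These correlations are across genes of single libraries, are not independent and describe the libraries. After each library was centred in bins of GC content, 18 of the 48 genes were higher in the ADV kidneys at an unadjusted p under 0.05, where 577 of 14452 genes were, and none passed the adjusted threshold. Before centring these counts were 10 and 253.

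**Figure D4:**
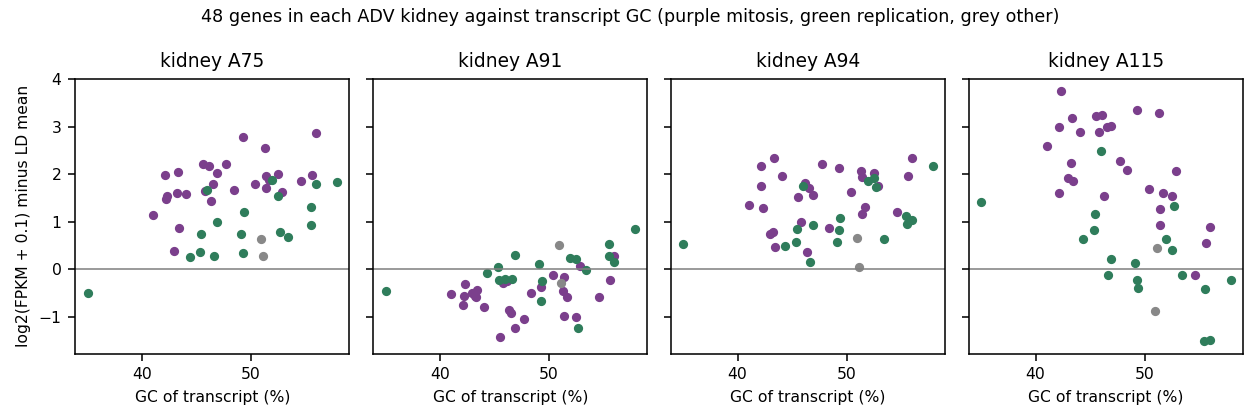
Difference of each ADV kidney from the mean of the 4 LD kidneys on the log2(FPKM + 0.1) scale (vertical axis) against the GC content of the transcript in percent (horizontal axis) for the 48 genes, mitosis genes in purple, replication genes in green, Ccnd1 and Stmn1 in grey. The points of A115 fall from left to right (r = −0.57), and those of the other 3 kidneys do not.

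Without A115, 4 of the 48 genes were higher in the ADV kidneys at an adjusted p under 0.05, Ccnd1, E2f1, Tk1 and Mcm2, and none was lower, beside 16.1% and 2.68% of all genes. The median of all genes was then 0.20, and after scaling by the median ratio 3 remained, beside 8.31% of all genes higher and 7.7% lower. Those were E2f1, the factor that gives the E2F group its name (1.45, adjusted p = 0.032), Ccnd1 (0.41, adjusted p = 0.0432) and Tk1 (0.80, adjusted p = 0.0455, limma). E2f1 was at 0.198, 0.513, 0.469 and 0.393 FPKM in the LD kidneys and 1.59, 0.755, 2.05 and 0.306 in the ADV kidneys. In the kidneys of A75, A91 and A94 all 3 genes were above every LD kidney, and in A115 Ccnd1 and Tk1 were below every one. No mitosis gene passed without A115, and the smallest adjusted p among them was 0.0689 for Plk1.

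Marker lists also moved in the kidneys that were high for mitosis genes. Mesenchymal markers summed to 166, 176 and 141 FPKM in A75, A94 and A115, to 62.3 in A91 and to 48.4 to 87.9 in the LD kidneys. Leukocyte markers summed to 81.5 FPKM in A75 and 298 in A94, but to 34.3 in A115 and 31.7 in A91, beside 28 to 58.9 in the LD kidneys. The members of this sum differed in A115, where Ptprc stood at 8.39 FPKM, above the LD kidneys (3.06 to 4.72), and Coro1a at 1.63, below them (2.36 to 7.38). B and plasma cell markers summed to 540 FPKM in A94, 60.6 in A75, 48.1 in A91 and 13 in A115, beside 32.4 to 47.6 in the LD kidneys. T cell markers were high in A94 (28.1 FPKM) and 3.17 to 6.34 in the other ADV kidneys, beside 2.78 to 5.43 in the LD kidneys. Macrophage markers were 152 in A75, 312 in A94, 49.6 in A91 and 27.2 in A115, beside 35.5 to 89.8 in the LD kidneys, and Clec4f, a marker of liver macrophages, was at 0 in all kidneys. Erythroid markers summed to 634 FPKM in A75 and 835 in A94, to 345 in A91 and 116 in A115, and to 157 to 352 in the LD kidneys. Kidney tubule and podocyte markers summed to 1367 FPKM in A115, beside 2705 to 3118 in the LD kidneys and 3345 to 4070 in the other ADV kidneys. The shares of mitochondrial fragments given above also set A115 apart from A75, A91 and A94. The part of any of these cells, or of the mitochondrial share, in the mitosis transcripts was not tested.

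Between the organs, the direction of many of the 48 genes depended on the scaling, as it did over all genes. As deposited, 34 of the 48 were higher in the kidney and 2 lower at an adjusted p under 0.05 (limma, 16 libraries), beside 61.9% and 13.2% of the 14968 genes tested. All 28 mitosis genes had higher mean log2 values in the kidney as deposited, and 22 passed the test. After scaling, the differences of Cdk1 (−0.41, adjusted p = 0.448, limma) and Aurka (−0.08, adjusted p = 0.816) were negative and did not pass. The median of all genes was 0.75 higher in the kidney on the log2 scale, and after scaling by the median ratio 12 of the 48 were higher and 6 lower, beside 34.6% and 31% of all genes. Differences between the organs are therefore given on both scales.

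Ccnd1 had the largest difference of the 48 genes as deposited, and after scaling Tk1 exceeded it slightly in size in the other direction. Ccnd1 was at 2.58 to 8.62 FPKM (median 3.40) in the 8 livers and 33.5 to 97.1 (median 66.9) in the 8 kidneys. The organs did not overlap, and the kidney minus liver difference was 4.05 ± 0.27 as deposited and 3.28 after scaling (adjusted p = 2.38e-09 and 7.36e-10, limma). Stmn1 was also higher in the kidney, at 2.54 to 11.1 FPKM (median 3.49) in the livers and 18.5 to 31.7 (median 23.6) in the kidneys (2.59 ± 0.21, scaled 1.82).

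The 6 subunits Mcm2 to Mcm7 form the ring of the replicative helicase, and their levels differed within an organ. Mcm6 was at 0.858 to 5.73 FPKM (median 1.16) in the livers and 7.27 to 13.8 (median 8.97) in the kidneys, a difference of 2.61 ± 0.27 (scaled 1.87, adjusted p = 3.19e-06). Mcm2 differed by 1.85 ± 0.28, Mcm5 by 1.45 ± 0.34 and Mcm4 by 1.31 ± 0.24, all past the threshold on both scales. Mcm7 (0.66 ± 0.16, scaled −0.10) and Mcm3 (0.42 ± 0.29, scaled −0.31) changed sign with the scaling. In the LD kidneys the mean FPKM, a level per length, ran in the order Mcm6 (8.28 ± 0.84, SD, n = 4), Mcm7 (5.98 ± 1.19), Mcm2 (2.63 ± 0.393), Mcm4 (2.55 ± 0.314), Mcm3 (1.26 ± 0.286) and Mcm5 (1.02 ± 0.212). The neighbours Mcm2 and Mcm4, and Mcm3 and Mcm5, differed by less than the larger of their SDs.

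Tk1 ran the other way, at 11.8 to 18.6 FPKM (median 15.6) in the livers and 0.729 to 5.81 (median 2.68) in the kidneys. Every mouse had more in the liver, and the difference was −2.54 ± 0.32 (adjusted p = 3.25e-06, scaled −3.29). Gins1 was also higher in the liver (−0.62 ± 0.17, adjusted p = 0.00453, scaled −1.35). Its partner in the GINS complex, Gins2, was higher in the kidney (1.82 ± 0.43, scaled 1.15). After scaling, Rrm2, Ccne1, Ccne2 and E2f1 were lower in the kidney as well (−1.39, −1.43, −1.06 and −1.23), and as deposited these had negative differences that did not pass.

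Of the mitosis genes, Nusap1, Cenpe, Kif23, Cdc20 and Foxm1 were higher in the kidney on both scales. Nusap1 was at 0.0886 FPKM in the mean of the LD livers and 1.4 in the mean of the LD kidneys (2.72 ± 0.41, scaled 2.15, adjusted p = 2.35e-05 and 0.000315). Cdk1 did not pass on either scale (0.23 ± 0.49, scaled −0.41), with 4 of the 8 mice higher in the kidney.

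**Figure D5:**
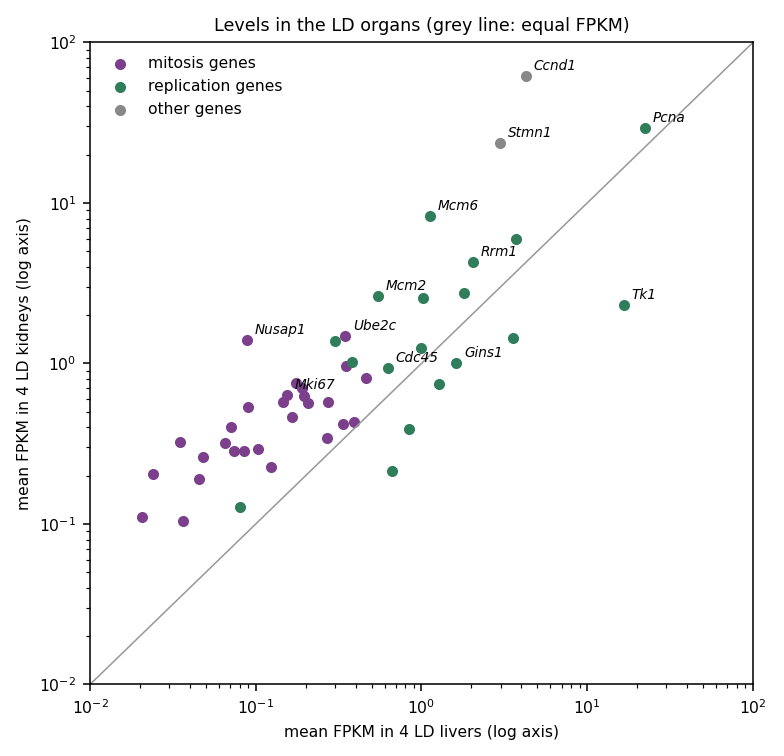
Mean FPKM of the 48 genes in the 4 LD livers (horizontal axis, log scale) and the 4 LD kidneys (vertical axis, log scale), with equal FPKM as the grey line. Mitosis genes lie above the line and replication genes on both sides of it, with Ccnd1 and Nusap1 far above it and Tk1 far below.

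Whether the ADV effect differed between the organs was tested as an interaction. None of the 48 genes passed at an adjusted p under 0.05, and none had an unadjusted p under 0.05, beside 0% and 3.71% of all genes. Without mouse A115, 330 genes had a more positive and 81 a more negative effect in the kidney at an adjusted p under 0.05, none of the 48 among them, and 2 of the 48 had an unadjusted p under 0.05, beside 2080 more positive and 1110 more negative of all 14975 genes. With all mice, the smallest p was that of Rrm2 (kidney minus liver 1.29 ± 0.68). The livers had 3.98, 3.32, 3.44 and 3.44 FPKM of Rrm2 in the LD mice and 1.86, 3.54, 6.88 and 4.93 in the ADV mice, with A75 below and A94 and A115 above the LD range. For Mki67 the interaction was 0.23 ± 1.11, an SE larger than the value.

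Other genes of the cell cycle were taken from 3 further lists. Of 52 other replication genes, 45 were tested in the liver and 47 in the kidney, and 6 and 4 were higher at an unadjusted p under 0.05, with 0 and 2 lower. Of all genes, 8.65% were higher and 3.13% lower in the liver and 1.75% and 1.35% in the kidney. Their median was 0.35 (liver) and 0.26 (kidney). Prim1, the catalytic subunit of primase, was at 0.941, 0.881, 1.13 and 0.953 FPKM in the LD livers and 2.11, 1.31, 2.21 and 1.57 in the ADV livers, and its partner Prim2 at 0.812, 0.713, 0.727 and 0.874 FPKM in the LD livers and 1.13, 1.21, 1.59 and 1.24 in the ADV livers. All 4 ADV livers were above all LD livers for both (log2 fold change 0.80 ± 0.19 and 0.65 ± 0.16, adjusted p = 0.296 for both, limma).

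In the kidney Uhrf1, which maintains DNA methylation behind the fork, was at 0.443, 0.633, 0.909 and 0.434 FPKM in the LD mice and 2.84, 0.652, 2.15 and 1.68 in the ADV mice, with A91 inside the LD range. Rfc4, a subunit of the clamp loader, had ADV kidneys all above the LD kidneys, at 3.57, 3.92, 3.62 and 5.68 against 2.93, 2.72, 2.27 and 2.56 FPKM.

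Of 61 other mitosis genes found in the tables, 34 were tested in the liver with 3 higher and none lower, and 57 in the kidney with 12 higher and none lower, at an unadjusted p under 0.05, beside 8.65% (liver) and 1.75% (kidney) of all genes higher. The liver count was near its share. The median was 0.81 in the kidney. In the liver it was 0.51 over all 61 genes with no filter and 0.08 over the 25 that passed the filter without A94, of which 1 was higher and 2 lower at that threshold. Smc2, a core subunit of condensin, had the smallest p in the liver, at 0.356, 0.519, 0.601 and 0.378 FPKM in the LD livers and 0.815, 0.793, 1.81 and 0.947 in the ADV livers (log2 fold change 1.03 ± 0.28, adjusted p = 0.296, limma). In the kidney, Dlgap5, a spindle protein, was at 0.0875, 0.169, 0.277 and 0.122 FPKM in the LD mice and 0.933, 0.192, 0.543 and 1.19 in the ADV mice, again with A91 within the LD range. The groups did not overlap for Smc2 in the liver.

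Among 40 genes that control the cycle, 4 of 38 tested were higher in the liver and 3 of 39 in the kidney at an unadjusted p under 0.05, and none was lower. The liver count was near the 8.65% of all genes, and the kidney share of all genes was 1.75%. Medians were 0.18 and 0.03. Cdkn1a, the inhibitor p21, varied widely, at 1.07, 2.1, 3.19 and 8.83 FPKM in the LD livers and 7.17, 1.51, 2.6 and 26.1 in the ADV livers, with A115 highest. Myc, a transcription factor that promotes growth, was at 0.878, 1.28, 0.754 and 0.877 FPKM in the LD livers and 0.811, 1.97, 2.94 and 1.94 in the ADV livers, where A91, A94 and A115 stood above the LD mice.

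Cdkn2b, the inhibitor p15, had all ADV kidneys above the LD kidneys, at 3.23, 2.23, 3.1 and 2.18 against 1.02, 1.47, 1.9 and 1.7 FPKM (log2 fold change 0.79 ± 0.25, adjusted p = 1.0, limma). Wee1, a kinase that restrains Cdk1 and a known target of the circadian clock, was at 8.9, 9.2, 11.7 and 9.15 FPKM in the LD kidneys and 6.73, 8.46, 7.96 and 7.24 in the ADV kidneys, all 4 lower. Wee1 was at 6.59, 6.17, 4.8 and 4.1 FPKM in the LD livers and 2.89, 5.43, 5.81 and 2.62 in the ADV livers, with A75 and A115 below the LD range and A91 and A94 within it. Neither difference passed (adjusted p = 1.0 and 0.528, limma). The organs were collected over several hours, and the collection time of each mouse is not in the labels.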

How the data were processed

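Liver and kidney RNA of 4 LD- and 4 ADV-conditioned mice (16 libraries) was measured. The authors trimmed the reads, mapped them to mm10 with STAR 2.5.4b (submitters' processing notes), removed reads of low mapping quality and quantified exons of UCSC canonical genes with HOMER. The deposited values are FPKM, although the columns are named RPKM, with each library scaled to its total. Value times exon length times total gave steps of 0.5 fragments for 100% of the low values, so that fragments could be recovered.

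Genes with a mean above 0.5 CPM in an organ were tested on log2(FPKM + 0.1) with limma 3.58.1 (R 4.3.3, lmFit and eBayes with trend), each organ apart, with Benjamini-Hochberg adjustment over all genes tested. Fold changes on this scale understate those of low genes. The paper's count test was not run. The script was tested on simulated data. The contrasts between organs used all 16 libraries. Exact permutation tests were two-sided over 70 assignments. The GC content was that of the GENCODE vM21 transcript nearest in length to the exons of the table. The fragment recovery used a tolerance of 0.01 fragments.

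The 48 genes and the other lists were chosen with earlier results of these data known. Values in every library were given for Mki67, Pcna, Ccnd1 and Stmn1, for the 4 genes with the smallest p and the 2 most abundant ones in each list and organ, and for some others chosen after their values were seen (Tk1, Ccne2, Plk1, E2f1, Gins2, Tyms and Rrm2 in the liver among them). From the 3 other lists, genes among the 4 with the smallest p, and Cdkn1a and Wee1, were eligible. Liver and kidney of a mouse carry the same name in the titles and were taken as paired in an alternative with the mouse as a replicate block. The correlation across genes of the deviations of both organs from their group means was −0.01 to 0.51 over the 8 mice. Alternatives were other pseudocounts (0.5 and 1) and filters, median-ratio scaling, limma-voom on recovered fragments, both organs in 1 fit, the replicate block, and leaving out each mouse. After seeing the data, median-ratio scaling without A94 or A115 and centring of each library in 20 bins of GC content were added. The proportion of genes with a GC value was above 96%.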

Additional observations from a re-analysis of the deposited data

Results flagged for a closer look

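Within each group of 4 mice, the gap of the highest or lowest mouse to its neighbour was divided by the range of the group (Dixon's ratio). Of 66 groups of gene and list values examined, 9 exceeded the 95% critical value, where chance flags about 1 in 20 independent groups. The genes were partly chosen by their values in these data and come from the same mice. The rate of 1 in 20 is therefore no test of this count. Of these, 6 were in ADV livers, 5 single genes and the mean over a list, and in each A94 was the high mouse. The mean of the replication genes gave 0.874, Birc5 0.963, Mcm3 0.947, Ccnd1 0.878, Nusap1 0.850 and Mki67 0.838. The others were Ccnd1 in the ADV kidneys (0.860), where A115 was low, Ube2c in the LD kidneys (0.876), where L86 was high, and Gins1 in the LD livers (0.842), where L63 was high.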

How the results depend on the processing

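For ADV against LD none of the 48 genes passed the adjusted threshold in liver or kidney, so that no call among them could be lost, and the medians of the mitosis genes and of the replication genes stayed above 0 under each alternative run. The count of genes higher in the liver at an unadjusted p under 0.05, 4 in the main analysis, was 2 with limma-voom, 6 after centring by GC content (with Ccne2 lower, where none was before, while over all 12835 genes 1110 higher and 402 lower became 868 and 820) and ran from 2 to 19 when 1 mouse was left out (19 without A91, 2 without L63, L65 or L104). In the kidney that count, 10 in the main analysis, was 6 with limma-voom, 18 after centring by GC content (577 of all 14452 genes, beside 253 in the main analysis), and ran from 1 to 35 when 1 mouse was left out (35 without A91, 2 without L65 or L104, 1 without L63, A75 or A94). Kidney genes with an adjusted p under 0.05 ran from 0 to 4 (4 without A115) and were 3 without A115 after median-ratio scaling. With both organs in 1 fit and the replicate block, none of the 48 genes passed in either organ, and 6 (liver) and 15 (kidney) were higher at an unadjusted p under 0.05, beside 843 and 432 of all 14968 genes. Kidney against liver, 34 higher and 2 lower became 12 and 6 after median-ratio scaling and 35 and 2 with the replicate block, and ran from 20 to 39 higher (20 without A75, 21 without L86) and from 2 to 5 lower (4 without A75, 5 without A115) when 1 mouse was left out. Over all genes, 9266 higher and 1969 lower became 8602 and 1995 without A75, 8694 and 1877 without L86, and 10771 and 2079 without A115. None of the 48 genes passed for the difference of the ADV effect between the organs, with or without the replicate block or mouse A115.

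Of 260 alternative values of 15 named genes in the liver, 3 reversed in sign. Ccnd1, at −0.16, was −0.55 without A94, −0.57 without A94 after scaling and 0.0159 without A91 (0.0123 without A115). Pcna went from 0.12 to −0.00 (−0.0046) without A94 after scaling. Of 252 values of 14 genes in the kidney, Stmn1 reversed (0.12 to −0.18) without A115 after scaling, and Ccnd1 passed without A115 (0.60, and 0.41 after scaling). The causes were not tested, except that leaving out a mouse removes a sample. Mitosis genes rested on a median of 9 fragments in the LD livers, which limits the precision of their fold changes there.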
